A study of Homo sapiens with 4 samples.

Results

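Transcripts of the death receptor pathway were examined in the human colorectal carcinoma cell line HCT116, labelled wild type, which had received 32 µM of the piperine derivative HJ-4 or 0.1% DMSO, the solvent, for 24 h. The genes were taken by symbol, from a list chosen with earlier results of these data known. They are 10 of the 20263 in the count table, whose Ensembl IDs were matched to GENCODE version 44. The set comprised 5 death receptor genes, FAS, TNFRSF10A, TNFRSF10B, TNFRSF1A and TNFRSF21, and the decoy receptor gene TNFRSF10D. It does not hold every receptor gene with a death domain, since TNFRSF25 and NGFR were listed with the other TNF receptor genes. It also held the ligand gene TNFSF10, the adaptor genes FADD and TRADD, and the inhibitor gene CFLAR. RNA was sequenced in 2 libraries per treatment, with 29769568 to 34359889 counts each, and the question addressed was whether HJ-4 altered the expression of this route to apoptosis. The HJ-4 dose is that of the labels and the methods of the study, and a figure legend of the study gives a lower one. The methods describe biological triplicates, whereas 2 libraries per treatment were analysed here. The labels do not say that these came from separate cultures, so the p-values reflect how far these libraries differed, which may be technical spread.

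Death receptors are members of the tumor necrosis factor (TNF) receptor superfamily that carry a death domain in the cytoplasm. When FAS ligand or TRAIL (encoded by TNFSF10) binds, the receptor recruits the adaptor FADD, which brings in caspase-8 and starts the extrinsic pathway of apoptosis. CFLAR encodes c-FLIP, a caspase-8 relative that competes for FADD, while TNF receptor 1 recruits TRADD first and mainly signals to NF-κB. TNFRSF10B is a known target of CHOP, the stress-induced factor encoded by DDIT3.

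Most receptor transcripts were more abundant with HJ-4, whereas the decoy receptor and both adaptors were less abundant, but no member passed the adjusted threshold. TNFRSF10B stood at 1.48 times its DMSO level (95% interval 1.27 to 1.74), FAS at 1.70 times (1.30 to 2.23) and TNFRSF10D at 0.719 times (0.610 to 0.847). Of the 10 genes, 9 had enough reads for the quasi-likelihood test of edgeR, and 0 of them had a Benjamini-Hochberg adjusted p under 0.05, a threshold passed by 0.0498% of the 14044 genes tested. At an unadjusted p under 0.05, 4 members were higher, against 7.93% of all genes, and 1 was lower, against 7.93% of all genes. DESeq2, run on the same counts, placed 3 higher (FAS, TNFRSF10B and TNFRSF1A; 2.32% of all genes) and 1 lower (TNFRSF10D; 1.74%) past its adjusted threshold. The median log2 fold change of the 9 was 0.34, beside 0.00 over all genes. In bulk RNA a change in the number of cells that carry a transcript and a change in transcript per cell cannot be told apart.

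**Figure D1:**
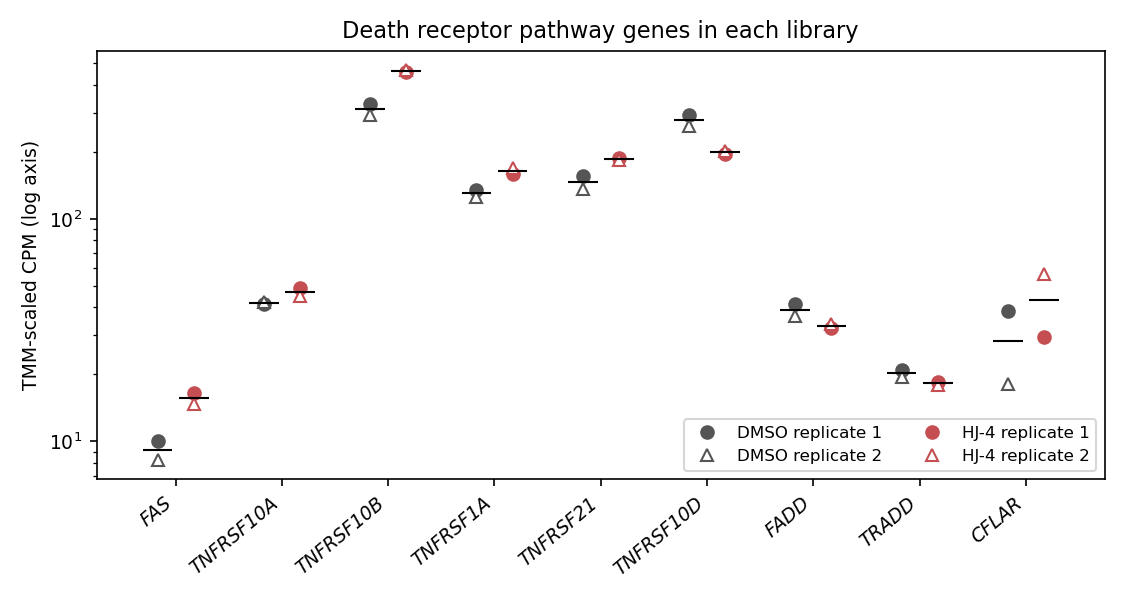
Level of each tested gene in every library, in TMM-scaled counts per 1000000 (CPM) on a log axis. Circles are replicate 1, open triangles replicate 2 and lines the group means. With HJ-4, 5 genes lay above both DMSO points and 3 below them, and CFLAR overlapped.

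Levels are given as CPM, that is counts per 1000000 reads after scaling by the trimmed mean of M values (TMM). Both HJ-4 libraries exceeded both DMSO libraries for 5 members, a pattern found in 25.2% of all genes tested, and lay below them for 3, found in 25.6%. TNFRSF10B (ENSG00000120889), which encodes TRAIL receptor 2 (DR5), measured 329 and 294 CPM after DMSO and 459 and 465 CPM after HJ-4. The HJ-4 values were close to each other, and both lay above both DMSO values. Its log2 fold change was 0.57 (standard error 0.09, unadjusted p = 0.00128, adjusted p = 0.122 from edgeR), the smallest p among the members and rank 147 of the 14044 genes. With DESeq2 the adjusted p was 1.22e-05.

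FAS (ENSG00000026103), the receptor of FAS ligand, was the least abundant receptor of the set per length of transcript and had the largest log2 fold change of the tested members. It measured 10.0 and 8.27 CPM after DMSO but 16.5 and 14.7 CPM after HJ-4, and the groups did not overlap. These levels rested on 315 and 249 reads with DMSO and on 562 and 491 with HJ-4. The log2 fold change was 0.77 (standard error 0.15, adjusted p = 0.165 from edgeR, 0.0132 from DESeq2).

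TNFRSF1A, the gene of TNF receptor 1, and TNFRSF21, the gene of death receptor 6, lay higher as well, by a smaller amount. TNFRSF1A measured 135 and 126 CPM after DMSO but 159 and 170 CPM after HJ-4, giving a log2 fold change of 0.34 (95% interval 0.11 to 0.56, adjusted p = 0.219 from edgeR, 0.0438 from DESeq2). TNFRSF21 measured 155 and 136 CPM after DMSO but 188 and 183 CPM after HJ-4, giving a log2 fold change of 0.35 (95% interval 0.10 to 0.60, adjusted p = 0.234 from edgeR, 0.0667 from DESeq2). For both genes every HJ-4 library lay above every DMSO library. Without HJ-4 replicate 2, TNFRSF1A and TNFRSF21 no longer had an unadjusted p under 0.05, and without HJ-4 replicate 1 TNFRSF21 did not.

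TNFRSF10A, which encodes TRAIL receptor 1 (DR4), measured 41.5 and 42.1 CPM after DMSO but 49.1 and 45.1 CPM after HJ-4. The groups were separate but close, with a log2 fold change of 0.17 and a 95% interval of -0.07 to 0.42 (adjusted p = 0.434 from edgeR). An increase of up to 1.33 times lies within that interval, as does no difference. Summed over the 5 death receptor genes of the set, the level was 670 and 606 CPM with DMSO and 872 and 878 CPM with HJ-4. TNFRSF10B made up 48.5% to 49.0% of the sum with DMSO and 52.6% to 53.0% with HJ-4.

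**Figure D2:**
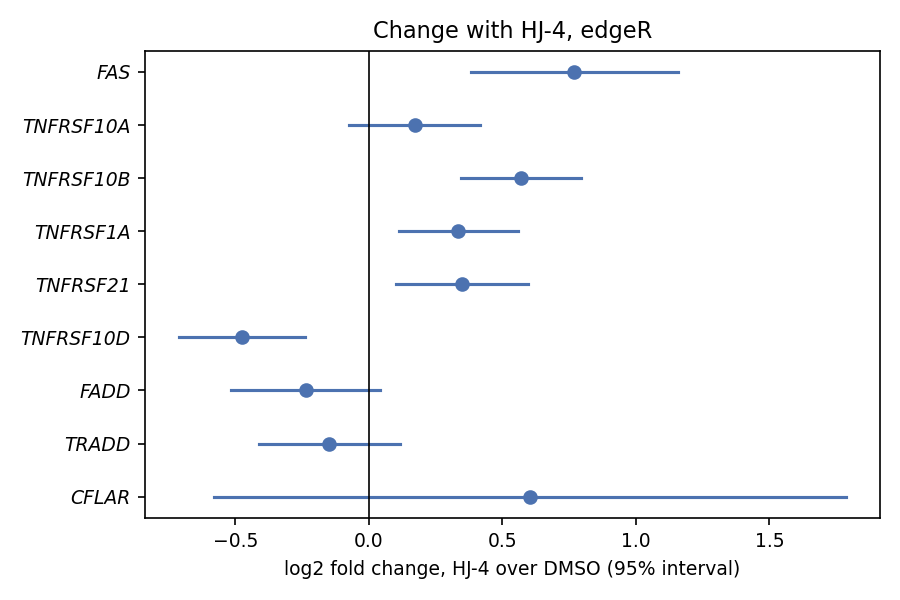
Log2 fold change of each tested gene, HJ-4 over DMSO, from edgeR. Points are estimates and bars 95% intervals. The intervals of FAS, TNFRSF10B, TNFRSF1A, TNFRSF21 and TNFRSF10D leave out 0 without adjustment, and that of CFLAR runs from -0.58 to 1.79.

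The promoters of FAS, TNFRSF1A and TNFRSF21, which lay higher with HJ-4 at an unadjusted p under 0.05 in edgeR, are printed here. No promoter is shown for TNFRSF10B, which also lay higher at that threshold, or for TNFRSF10D, which lay lower. The sequences come from RefSeq on GRCh38.p14, which held an entry for 6 of the 10 members, and run from 250 bases before the start site to 50 bases from it on. Capitals mark matches on either strand to an AP-1 site (TGANTCA), a GC box (GGGCGG), an E-box (CACGTG), a composite site of ATF4 and C/EBP (TGATGNAA), a TATA box (TATAAA) or the CCAAT box, whose letters are its name.
FAS (chr10:88990548-88990847, plus strand): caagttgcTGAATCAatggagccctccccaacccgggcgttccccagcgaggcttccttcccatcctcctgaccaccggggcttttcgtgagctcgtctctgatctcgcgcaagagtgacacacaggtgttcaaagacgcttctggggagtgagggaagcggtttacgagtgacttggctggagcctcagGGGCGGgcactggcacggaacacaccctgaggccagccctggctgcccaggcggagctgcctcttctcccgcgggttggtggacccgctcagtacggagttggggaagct
TNFRSF1A (chr12:6342027-6342326, minus strand): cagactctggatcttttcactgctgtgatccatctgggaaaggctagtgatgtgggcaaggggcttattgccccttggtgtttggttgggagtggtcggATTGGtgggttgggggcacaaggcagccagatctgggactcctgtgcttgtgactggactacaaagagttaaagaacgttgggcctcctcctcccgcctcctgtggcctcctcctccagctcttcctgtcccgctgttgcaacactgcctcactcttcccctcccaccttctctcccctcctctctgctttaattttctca
TNFRSF21 (chr6:47309856-47310155, minus strand): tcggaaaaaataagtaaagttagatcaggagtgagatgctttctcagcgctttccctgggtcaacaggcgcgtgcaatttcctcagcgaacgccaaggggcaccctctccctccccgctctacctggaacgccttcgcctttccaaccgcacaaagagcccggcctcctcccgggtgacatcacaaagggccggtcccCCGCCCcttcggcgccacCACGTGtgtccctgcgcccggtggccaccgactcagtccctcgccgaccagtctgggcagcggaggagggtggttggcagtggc

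FAS and TNFRSF21 each held 1 GC box, at positions -60 and -52 from the start site, a motif found in 45.0% of the 35116 promoter windows of this length. FAS also held TGAATCA at -242, a match to the loose AP-1 pattern (7.71% of windows). TNFRSF21 held an E-box at -34 (7.26%), and TNFRSF1A a CCAAT box at -151 (34.6%). The composite ATF4 site (3.62% of windows) and the TATA box (11.5%) matched in none of the 3 windows. The promoters of TNFRSF10B and TNFRSF10D were not searched. The windows of FAS and TNFRSF21 held 18 and 23 CpG dinucleotides and that of TNFRSF1A held 4, and no motif was shared by all 3 genes.

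TNFRSF10D (ENSG00000173530), which encodes a TRAIL receptor with a truncated death domain that binds TRAIL without signaling apoptosis, was the member with the largest log2 fold change below 0. It measured 294 and 261 CPM after DMSO but 196 and 203 CPM after HJ-4, with no overlap between the groups. The log2 fold change was -0.48 (standard error 0.09, adjusted p = 0.164 from edgeR, 0.00158 from DESeq2). TNFRSF10D and TNFRSF10B lie in the same cluster on chromosome 8 of GRCh38, from 23135588 to 23164027 and from 23020133 to 23069031, both on the minus strand.

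The balance between these neighboring TRAIL receptor genes was steady within each treatment and differed between treatments. The ratio of TNFRSF10B to TNFRSF10D reads was 1.12 and 1.13 after DMSO but 2.34 and 2.30 after HJ-4, a 2.06-fold difference that no library scaling can move. On the log2 scale the ratio was 0.17 (SD 0.0071, n = 2) with DMSO and 1.21 (SD 0.018, n = 2) with HJ-4. The difference of 1.05 was larger than these SDs, each of which rests on 2 libraries. It lay between 1.03 and 1.06 when any 1 library was left out. The pair joins the member with the smallest p in edgeR, which lay higher, and the only member that lay lower at an unadjusted p under 0.05. Of the reads of both genes, TNFRSF10B took 52.8% (95% Wilson interval 52.1 to 53.5) and 52.9% (52.2 to 53.7) after DMSO but 70.0% (69.4 to 70.6) and 69.7% (69.0 to 70.3) after HJ-4. These intervals cover counting error only. With 2 libraries against 2 no exact permutation test can reach a p under 0.05, so the ratio is given as a description.

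**Figure D3:**
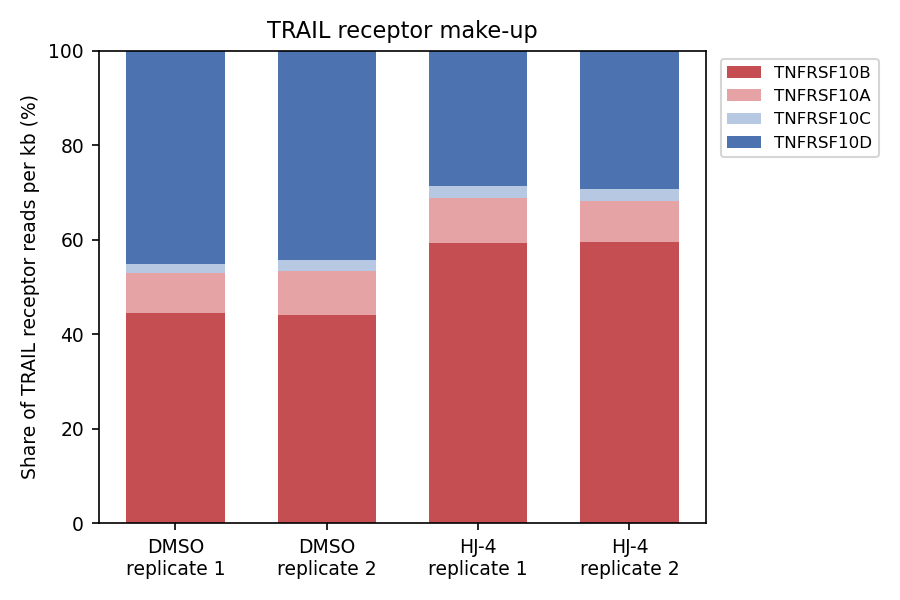
Share of each of the 4 TRAIL receptor genes in their summed reads per kilobase of canonical transcript, in percent, for each library. TNFRSF10B took at most 44.6% with DMSO and at least 59.3% with HJ-4, and TNFRSF10D at least 44.2% and at most 29.3%.

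Per kilobase of canonical transcript, a scale on which genes can be compared with each other, the decoy and DR5 were level in DMSO-treated cells and apart in HJ-4-treated cells. TNFRSF10D was at 78.5 ± 6.57 and TNFRSF10B at 77.8 ± 6.13 reads per kilobase per 1000000 reads (RPKM; SD, n = 2) with DMSO, less than their spread apart, followed by TNFRSF1A at 60.1 ± 2.95 and TNFRSF21 at 40.5 ± 3.74. With HJ-4 the order was TNFRSF10B at 116 ± 1.12, TNFRSF1A at 75.8 ± 3.44, TNFRSF10D at 56.5 ± 1.25 and TNFRSF21 at 51.6 ± 1.02 RPKM, each further from the next than their spread. The order depends on the length used. Over all annotated exons instead of the canonical transcript, TNFRSF10D led with DMSO at 78.5 RPKM, ahead of TNFRSF10B at 62.1, TNFRSF21 at 40.5 and TNFRSF1A at 31.0 RPKM. On that scale TNFRSF10B led with HJ-4 at 92.2 RPKM, ahead of TNFRSF10D at 56.5, TNFRSF21 at 51.6 and TNFRSF1A at 39.1 RPKM. TNFRSF10A took 8.37% to 9.44% of the 4 TRAIL receptor genes per length in the 4 libraries, and the other decoy gene, TNFRSF10C, took 1.97% to 2.54%. The lower places were the same under both treatments, with FADD, TNFRSF10A and TRADD at 22.8, 15.6 and 13.7 RPKM with DMSO, and with FAS at 2.48 ± 0.337 and CFLAR at 1.94 ± 0.989 RPKM not apart beyond their spread. With HJ-4, FAS at 4.22 ± 0.341 and CFLAR at 2.95 ± 1.31 RPKM (SD, n = 2) were again within their spread, and over all annotated exons CFLAR stood above FAS (1.26 and 0.312 RPKM with DMSO). The length used for CFLAR, 14612 bases, is mostly 3' UTR (12717 bases), so its level per length depends on that choice.

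The ligand TRAIL was barely detected in these cells. TNFSF10 had 0 and 4 reads after DMSO versus 2 and 0 after HJ-4, 6 in all, too few for a test. A library with 0 reads allows a level of up to 0.0964 CPM (DMSO replicate 1) or 0.0889 CPM (HJ-4 replicate 2). This takes 3 reads as the limit, over total counts without TMM scaling, here and for FASLG below. No fold change is given, since both groups were at or near this limit. FASLG, the gene of FAS ligand, had 0 reads in all 4 libraries, which allows a level of up to 0.0873 to 0.101 CPM, and TNF had 0 to 4.

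The adaptor genes FADD and TRADD lay slightly lower with HJ-4, within intervals that include no difference. FADD, the adaptor that links FAS and the TRAIL receptors to caspase-8, measured 41.4 and 36.5 CPM after DMSO but 32.4 and 33.7 CPM after HJ-4 (log2 difference -0.24, 95% interval -0.52 to 0.04, adjusted p = 0.363 from edgeR). TRADD measured 21.0 and 19.5 CPM after DMSO but 18.6 and 18.0 CPM after HJ-4 (log2 difference -0.15, 95% interval -0.41 to 0.12, adjusted p = 0.519 from edgeR). For both genes the groups did not overlap. In GENCODE, 59.19% of the exon bases of FADD are also covered by a noncoding gene on the opposite strand, and no source used here states whether the counting used strand, so that reads of that gene may be included.

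CFLAR was the one tested member whose groups overlapped, and its libraries differed more within a treatment than any other tested member's. It measured 38.5 and 18.1 CPM after DMSO versus 29.5 and 56.6 CPM after HJ-4, a 2.13-fold and a 1.91-fold gap between replicates, whereas the other 8 tested members had gaps of at most 1.21-fold. The log2 fold change was 0.60, with an interval from -0.58 to 1.79 (adjusted p = 0.551 from edgeR), which includes a fall to 0.670 times and a rise to 3.45 times the DMSO level. It was 1.25 without DMSO replicate 1, 0.16 without DMSO replicate 2, 1.02 without HJ-4 replicate 1 and 0.05 without HJ-4 replicate 2, and only without DMSO replicate 1 was its unadjusted p under 0.05. Gene counts do not separate the long and short c-FLIP forms.

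A high DMSO replicate 1 together with a high HJ-4 replicate 2 was found in few genes, by a count made after the values were seen. Of 10008 genes averaging 10 CPM or more, 26 (0.26%), CFLAR among them, had replicates at least 1.5-fold apart in this same way in both treatments. Genes with other patterns of replicate gaps were not counted, so it is not known whether this share or the 3' UTR lengths below are particular to this pattern. The median 3' UTR of these 26 was 3748.5 bases in the canonical transcript, beside 1387 bases over the genes with a 3' UTR. The genes nearest to CFLAR in this pattern, chosen after its values were seen, were UNC13A, PMM2 and SLC39A14, with 3' UTRs of 4721, 1503 and 3041 bases. The part of 3' UTR length in the spread of CFLAR was not tested.

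Ratios against CFLAR carried its spread. The ratio of TNFRSF10B to CFLAR reads was 8.53 and 16.3 with DMSO and 15.5 and 8.23 with HJ-4, and that of FAS to CFLAR was 0.261 and 0.458 with DMSO and 0.559 and 0.260 with HJ-4. Both overlapped between treatments, and their log2 differences of -0.06 and 0.14 changed sign with the library left out. The first was positive without DMSO replicate 2 or HJ-4 replicate 2, and the second was negative without DMSO replicate 1 or HJ-4 replicate 1. The ratio of FADD to CFLAR was 1.08 and 2.02 with DMSO and 1.10 and 0.596 with HJ-4, a log2 difference of -0.86 that was between -1.32 and -0.41 when 1 library was left out. These counts therefore do not resolve whether receptors or adaptors gained on c-FLIP.

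Some members share exon bases with another counted gene. TNFRSF10B shares 377 exon bases with RHOBTB2 on the opposite strand, whose counts were 843 and 800 with DMSO and 587 and 559 with HJ-4, opposite in direction to TNFRSF10B and much lower. FAS shares 387 exon bases with ACTA2 on the opposite strand, which had 399 and 330 counts with DMSO and 547 and 607 with HJ-4, and 166 bases with STAMBPL1 on the same strand, which had 453 and 460, and 602 and 535. Both neighbors of FAS had more reads in the HJ-4 libraries, which were also the deeper ones, and the part of shared reads in the fold change of FAS was not tested. FAS lies on chromosome 10 from 88953813 to 89029605, TNFRSF1A on chromosome 12 from 6328757 to 6342114, TNFRSF21 on chromosome 6 from 47231532 to 47309905 and CFLAR on chromosome 2 from 201116154 to 201176687 of GRCh38. FADD lies on chromosome 11 from 70203296 to 70207390, TRADD on chromosome 16 from 67154185 to 67159909, TNFRSF10A on chromosome 8 from 23190452 to 23225102 and TNFSF10 on chromosome 3 from 172505508 to 172523475.

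**Figure D4:**
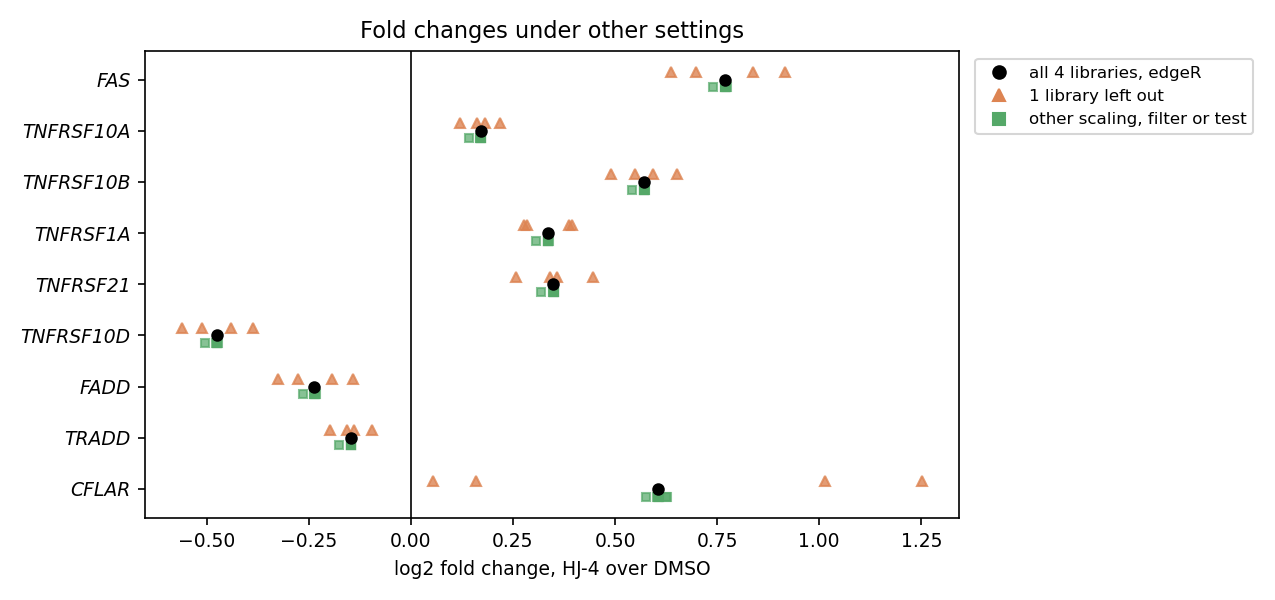
Log2 fold change of each tested gene with all 4 libraries (black circles), with 1 library left out (triangles) and under another scaling, filter or test (squares). The values of TNFRSF10B lay between 0.49 and 0.65, those of TNFRSF10D between -0.56 and -0.39, and those of CFLAR between 0.05 and 1.25.

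In the rest of the pathway, 61 of 77 further genes in 4 lists could be tested. At an unadjusted p under 0.05 in edgeR, 12 lay higher and 3 lower, against 7.93% of all genes in each direction. In edgeR 0 passed the adjusted threshold. DESeq2 called 5 higher and 1 lower, against 2.32% and 1.74% of all genes. The median log2 fold change of the 61 was 0.09. The lists were written with earlier results of these data known. The 12 genes with the smallest p over these lists and that of the transcription factors are named, together with a few genes chosen after their values were seen.

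Among the other TNF receptor genes, 15 of 23 were tested. An unadjusted p under 0.05 in edgeR was found for 3 that lay higher and 1 that lay lower (7.93% of all genes in each direction). TNFRSF6B, which encodes the soluble decoy receptor 3 that binds FAS ligand, measured 500 and 424 CPM after DMSO but 660 and 682 CPM after HJ-4 (log2 difference 0.54, adjusted p = 0.164 from edgeR, 0.00121 from DESeq2). All of its exon bases also belong to the readthrough gene RTEL1-TNFRSF6B, so its reads may be split between them. The log2 fold change of the lymphotoxin beta receptor gene LTBR, which shares 422 exon bases with SCNN1A on the opposite strand, was 0.52. That of TNFRSF19 was -0.80, from 2.15 ± 0.064 to 1.23 ± 0.081 CPM (n = 2, SD), with an adjusted p of 0.237 from edgeR and 0.408 from DESeq2. The decoy gene TNFRSF10C, chosen after its values were seen, measured 5.06 and 5.52 CPM after DMSO but 6.81 and 6.92 CPM after HJ-4. Its log2 fold change was 0.38 (95% interval 0.02 to 0.74), beside -0.48 for the decoy gene TNFRSF10D. TNFRSF10C passed neither adjusted threshold (adjusted p = 0.304 from edgeR, 0.528 from DESeq2).

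Among the other TNF family ligand genes, 10 of 17 were tested. EDA, which encodes ectodysplasin, a ligand of skin appendage development, measured 23.1 and 30.2 CPM after DMSO but 5.93 and 7.67 CPM after HJ-4. Its log2 fold change of -1.97 was the largest in size in these lists (standard error 0.20, adjusted p = 0.0794 from edgeR, 3.43e-12 from DESeq2). EDA shares 1327 exon bases with a noncoding gene on the opposite strand. In all, an unadjusted p under 0.05 in edgeR was found for 2 ligand genes that lay higher and for EDA, which lay lower. The share of all genes was 7.93% in each direction.

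Partners of caspase activation lay in both directions. Of 13 tested, 7 had a log2 fold change above 0 and 6 below it, with a median of 0.16. At an unadjusted p under 0.05 in edgeR, 3 lay higher and 1 lower (7.93% of all genes in each direction). MLKL, the executioner of necroptosis, measured 4.50 ± 0.118 CPM after DMSO but 7.41 ± 0.717 CPM after HJ-4 (SD, n = 2). It passed neither adjusted threshold (adjusted p = 0.175 from edgeR, 0.0949 from DESeq2). RIPK3, the kinase that activates MLKL, had 0 to 2 reads. PEA15, a death effector domain protein that binds FADD and caspase-8, differed by 0.40 on the log2 scale (adjusted p = 0.181 from edgeR, 0.0169 from DESeq2). For the initiator caspase gene CASP8 the log2 fold change was 0.38 and for the kinase gene RIPK1 it was -0.36 (adjusted p = 0.244 and 0.261 from edgeR), and both were chosen after their values were seen.

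All 23 genes of the TNF receptor 1 signaling complex were tested, at a median log2 fold change of 0.05. In edgeR, 4 lay higher and 0 lower with an unadjusted p under 0.05 (7.93% of all genes in each direction). DESeq2 called 2 of the 23 higher and 0 lower at its adjusted threshold (2.32% and 1.74% of all genes). RBCK1, a subunit of the linear ubiquitin ligase, measured 103 and 97.1 CPM after DMSO but 171 and 167 CPM after HJ-4 (log2 difference 0.75, adjusted p = 0.0795 from edgeR, 3.25e-11 from DESeq2). BIRC3, which encodes the ubiquitin ligase cIAP2, measured 74.8 and 80.3 CPM after DMSO but 117 and 118 CPM after HJ-4 (log2 difference 0.60, adjusted p = 0.106 from edgeR, 3.33e-06 from DESeq2). TRAF1 and TNFAIP3, the gene of the NF-κB inhibitor A20, had log2 fold changes of 0.76 and 0.46. Neither gene passed an adjusted threshold: for TRAF1 the adjusted p was 0.208 in edgeR and 0.211 in DESeq2, for TNFAIP3 0.213 and 0.0509. BIRC3, TRAF1 and TNFAIP3 are known NF-κB target genes, but they were named for their small p. Whether NF-κB target genes as a set lay higher was not tested. The factor genes NFKB1 (log2 difference 0.17) and RELA (0.03) had 95% intervals that include no difference.

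**Figure D5:**
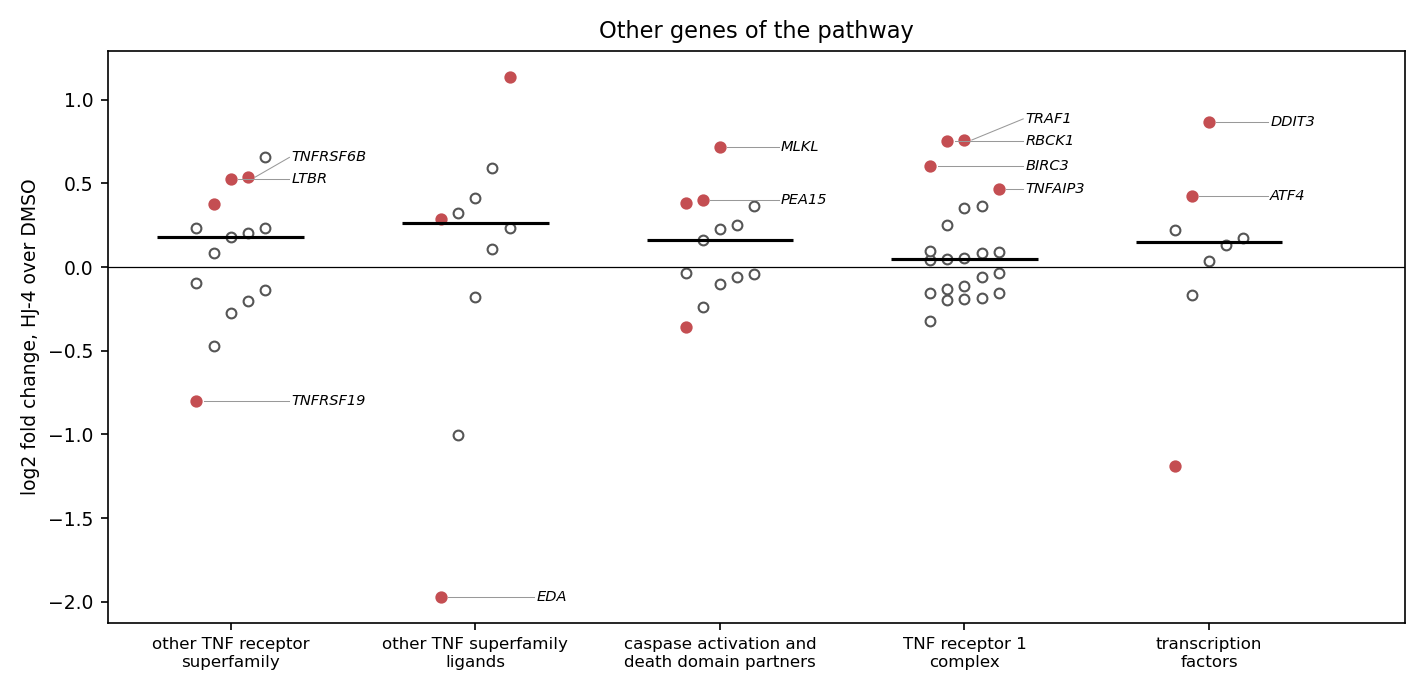
Log2 fold change, HJ-4 over DMSO, of each tested gene in 5 lists. Filled red points have an unadjusted p under 0.05 in edgeR, lines are list medians and the 12 genes with the smallest p are named. EDA lies at -1.97 and RBCK1 at 0.75.

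Transcription factor genes known to act on the receptor genes or CFLAR were read beside the members. Of the 8 tested, 2 lay higher and 1 lower with an unadjusted p under 0.05 in edgeR (7.93% of all genes in each direction). DDIT3, which encodes CHOP, measured 85.4 and 61.4 CPM after DMSO but 136 and 131 CPM after HJ-4. ATF4, the stress-response factor upstream of CHOP, measured 637 and 591 CPM after DMSO but 827 and 821 CPM after HJ-4. Their log2 fold changes were 0.87 and 0.42 (adjusted p = 0.165 and 0.155 from edgeR, 0.000482 and 0.00049 from DESeq2). DDIT3 shares 355 exon bases with MARS1 on the opposite strand, 27.16% of its own, and MARS1 had 3819 and 3426 counts with DMSO and 5151 and 4402 with HJ-4. It shares 58 exon bases with MBD6, also on the opposite strand, which had 1739 and 1087 counts with DMSO and 2224 and 2186 with HJ-4. Both neighbors had more reads in the deeper HJ-4 libraries, as DDIT3 did, and the part of shared reads in its fold change was not tested. MYC, chosen after its values were seen, measured 17.5 and 13.3 CPM after DMSO but 4.52 and 8.99 CPM after HJ-4. The part of these factors in the levels of the members was not tested.

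The genes whose levels over the 4 libraries were most like those of TNFRSF10B, among 10007 genes averaging 10 CPM or more, were SLMAP, NDUFB9 and SCD. The root mean square difference of their centered log2 CPM from that of TNFRSF10B was 0.017, 0.018 and 0.021, and their log2 fold changes were 0.56, 0.57 and 0.55. With 4 libraries in 2 treatments, this measure mostly finds genes with a like fold change.

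Mitochondrially encoded genes took 6.01% to 7.73% of the counts. Of 8 colon epithelial markers, 6 were above 1 CPM, with summed levels of 3981 to 4474 CPM with DMSO and 4194 to 4386 CPM with HJ-4, while CDX1 had no reads and VIL1 was at 0 to 0.127 CPM. The fibroblast markers COL1A2, DCN and LUM had no reads, with a summed level of 59.0 to 63.1 CPM that was mostly COL1A1 (58.2 to 62.6 CPM). The immune marker CD3E had no reads and PTPRC at most 0.0599 CPM, and the summed level of that list, mostly CD68, was 34.2 to 40.3 CPM with DMSO and 46.5 to 50.8 CPM with HJ-4. The endothelial markers summed to 0.731 to 1.11 CPM with DMSO and 1.35 to 1.44 CPM with HJ-4, mostly VWF. The immune and endothelial sums thus lay higher with HJ-4 at low levels, with CD3E absent and PTPRC, PECAM1 and CDH5 near or at 0.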

How the data were processed

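The deposited values are counts of reads per gene, whole and without normalization, for 20263 Ensembl IDs in 4 libraries. The study's methods name STAR, GRCh38 and featureCounts, while the processing notes of the submitters list HISAT2, RSEM and bedtools after FastQC and Trimmomatic. The tool, annotation and strand setting behind the deposited counts are not given in the sources used here. Reads of overlapping or near-identical genes may be split or dropped. Columns were matched to samples by library name. GENCODE version 44 (GRCh38) matched 20148 IDs.

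Genes passing filterByExpr (14044) were scaled by TMM and tested with edgeR 4.0.16 (R 4.3.3; glmQLFit, glmQLFTest) on treatment alone, with Benjamini-Hochberg adjustment. The study names limma, and edgeR was used because the values are counts. Standard errors and intervals were derived from the F statistic. RPKM used the canonical transcript. DESeq2 1.42.0 and limma-voom (limma 3.58.1) were alternatives, beside a replicate block, other scalings and filters, robust fitting and leaving out each library. The edgeR fit was tested on simulated data. Each library held 29769568 to 34359889 counts. Counts of replicates differed beyond sampling noise, at a chi-square of 36.5 (DMSO) and 21.9 (HJ-4) for each degree of freedom.

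The members and gene lists were chosen with earlier results of these data known. Genes named outside the members were, by rule, the 12 with the smallest p in the pathway and transcription factor lists and the 3 nearest in pattern to the member with the smallest p. The result for 1 gene of these lists is not reported here.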

Additional observations from a re-analysis of the deposited data

How the results depend on the processing

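All 9 tested members kept the direction of their fold change under all 12 alternatives (replicate block, DESeq2 size factors, total counts, no filter, a mean of at least 5 CPM, DESeq2, limma-voom, robust fitting and leaving out each library). No member passed the adjusted threshold except with DESeq2, where 4 did. The number of members at an unadjusted p under 0.05 was 5 in the main test, 5 with the replicate block and 3 to 6 with 1 library left out (3 without HJ-4 replicate 2, 6 without either DMSO library), and that of the pathway genes was 15, and 8 to 17. Over all genes, edgeR called 7, 31 with the replicate block, 12 without a filter, 46 with robust fitting and 0 to 88 with 1 library left out. The count of 0 came when either HJ-4 library was left out (1030 and 1184 genes at an unadjusted p under 0.05), which leaves 1 HJ-4 library that is assumed to vary as the DMSO libraries do. DESeq2 called 570. Leaving out 1 library gave log2 differences of -0.52 to 0.41 for the ratio of TNFRSF10B to CFLAR and of -0.41 to 0.69 for that of FAS to CFLAR. The same replicate numbers did not pair the libraries (correlation of their deviations over genes -0.04), and the replicate block changed no call among the members. The causes of these shifts were not tested. With 249 to 562 reads, FAS is the tested member most limited by depth, and TNFSF10 lies below what these libraries can compare.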
